A study of Rattus norvegicus with 24 samples.

Results

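Cav1 and Cav3 encode caveolin-1 and caveolin-3, the membrane proteins that shape caveolae, the flask-like pits of the plasma membrane. Both genes were found by their symbol in the platform's probe annotation, 2 of 4126 named genes, and each was read by 1 probe of 4803. They were chosen by their right ventricle differences between the conditions, so those differences are given below as a description with no test. The series compares rats with hypertrophy after monocrotaline with control rats. Monocrotaline is an alkaloid toxic to lung vessels that raises the load on the right ventricle. Total RNA of each ventricle sample was set against a reference pool on a 2-colour array, and all 24 samples are from day 14. The labels name the conditions HYP, CHF and CON, read from the series title as compensated hypertrophy, decompensated hypertrophy and control, without spelling them out. There were 6 HYP, 6 CHF and 6 CON right ventricle arrays, and 2 HYP, 2 CHF and 2 CON left ventricle arrays. The sources used here do not give strain, sex, age, dose or what the CON rats received.

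Caveolin-1 is the main caveolin of endothelium, smooth muscle, fibroblasts and adipocytes, while caveolin-3 is the form of cardiac and skeletal muscle cells. Caveolins insert as hairpins into the inner leaflet and assemble with cavin proteins into the caveolar coat. In muscle, caveolin-3 lies at the sarcolemma and at the transverse tubules, where receptors, G proteins, nitric oxide synthase and ion channels are held close together.

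Each value is the deposited score of a probe on one array, less the median of that array, in units of the array's standard deviation (array SDs). Within an array the scores averaged -0.0345 to 0.0713 and their SD was 0.870 to 1.01, so a difference is not a fold change. An array held between 2162 and 3658 values. A score is relative to the reference pool for its own probe, so levels of Cav1 and Cav3 cannot be set against each other. Direction was read as sample over pool, and this is not settled, since the sources used here do not name the dyes and the lowest correlation between arrays was -0.530. In each pair of arrays that correlated below -0.3 across probes, the one with the lower median correlation to the right ventricle arrays was marked as one whose sign could be turned, which gave 5 arrays: CHF right ventricle 10 and 14, CHF left ventricle 09, and both CON left ventricle arrays, 21 and 22. Results are therefore also given, where stated, with the sign of these arrays turned. The labels do not say that the arrays of a group came from separate animals, so a p-value here measures no more than the spread of these samples, which may be technical. In ventricle tissue, fewer cells of a type and less RNA per cell cannot be told apart.

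The promoters are shown because the genes differ in the cells that use them. The last 100 bases before the first listed start of each are given from RefSeq on the rat assembly GRCr8, plus strand. Both genes lie on chromosome 4. Capitals mark matches on either strand to a GC box (GGGCGG), an E-box (CANNTG), the site form of muscle basic helix-loop-helix factors, or the MEF2 motif, named for a family of muscle transcription factors.
Cav1, chr4:46606438-46606537: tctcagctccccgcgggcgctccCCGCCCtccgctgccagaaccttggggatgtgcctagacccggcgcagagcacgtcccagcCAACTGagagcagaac
Cav3, chr4:147137893-147137992: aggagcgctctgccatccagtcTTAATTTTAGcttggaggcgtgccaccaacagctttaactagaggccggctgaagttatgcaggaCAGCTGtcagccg
The Cav1 window held the GC box (reverse strand) and 1 E-box, and the Cav3 window held the MEF2 match and an E-box of the form CAGCTG. Among 33469 promoters, the same window held a MEF2 match in 1.06%, a CAGCTG in 5.31%, any CANNTG in 33.8% and a GC box in 21.6%. The M-CAT motif (CATTCC) and the CArG box, also searched, had no match in either window. Over the last 250 bases, Cav3 had an M-CAT match on the reverse strand at -157 to -152, where 12.1% of promoters held one. Cav1 has a further listed start, not shown, whose last 250 bases held an E-box at -228 to -223 and no GC box match. A match describes letters only.

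Cav3 was measured on 24 of 24 arrays. In the right ventricle its score was high in CHF, intermediate and split in HYP, and low in CON. HYP right ventricles 01, 03, 04, 05, 06 and 08 had scores of 0.753, -0.691, 1.11, -0.750, 0.382 and -0.667. CHF right ventricles 09, 10, 11, 12, 14 and 15 had 1.23, 0.872, 0.454, 0.357, 1.23 and 0.211. CON right ventricles 17, 18, 19, 20, 21 and 22 had -1.35, -2.10, -1.82, -0.936, -2.23 and -3.33. As read, without turning any sign, all 6 CHF scores were above 0 and all 6 CON scores below it. The HYP scores fell into 3 above 0 and 3 near -0.7, and every one of them was above every CON score.

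**Figure D1:**
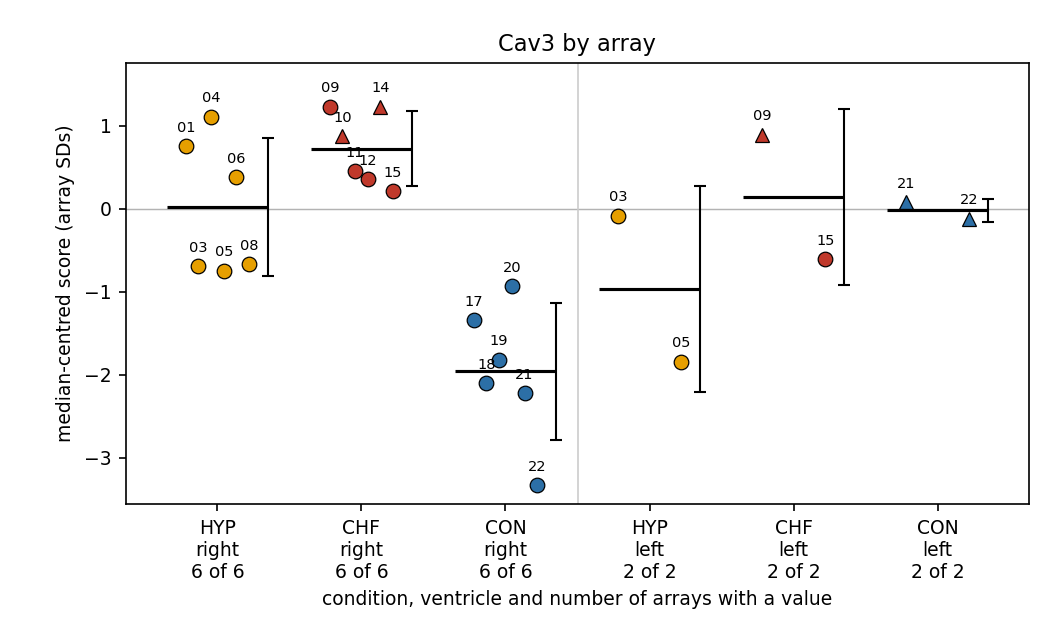
Median-centred Cav3 score (array SDs) on each of the 24 arrays by condition and ventricle, with the array number above each point, the group mean as a line and the SD as a bar. Triangles mark the 5 arrays whose sign could be turned. As read, without turning any sign, the 6 HYP and 6 CHF right ventricle arrays all lie above the 6 CON right ventricle arrays, while the left ventricle groups have 2 arrays each.

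The mean Cav3 score was 0.0223 ± 0.827 in HYP, 0.726 ± 0.448 in CHF and -1.96 ± 0.827 in CON right ventricles (SD, n = 6 each). CHF minus CON was 2.69 ± 0.405 array SDs (SE of the fit), and 29 of 3199 features had a larger difference. HYP minus CON was 1.98 ± 0.405, with 16 features larger. Both differences share the 6 CON arrays. Of the features with 6 values in each group, 1.34% had every CHF array above every CON array and 0.708% had every HYP array above every CON array, as Cav3 did. CHF minus HYP was 0.703 ± 0.405, with overlapping scores. With the sign turned, CHF minus CON was 1.99 and CHF minus HYP was 0.00283. Turned, CHF arrays 10 and 14 had -0.872 and -1.23, and array 14 lay below CON array 20 (-0.936), so CHF and CON overlapped. Without CHF arrays 10 and 14, CHF minus CON was 2.52 and CHF minus HYP 0.541.

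In the left ventricle, samples that the choice of the genes did not use, no Cav3 difference passed the test. HYP left ventricles 03 and 05 had scores of -0.085 and -1.85, CHF left ventricles 09 and 15 had 0.892 and -0.610, and CON left ventricles 21 and 22 had 0.080 and -0.120. The CON scores lay inside the range of the CHF scores, and HYP array 03 lay between the CON scores. CHF minus CON was 0.161 ± 0.735 (SE; 95% interval -1.36 to 1.69; limma, adjusted p = 0.9998), and the sign-turned value was -0.771. HYP minus CON was -0.946 ± 0.735 (interval -2.47 to 0.578; limma, adjusted p = 0.996). CHF minus HYP was 1.11 ± 0.735 (interval -0.417 to 2.63; limma, adjusted p = 0.958). Whether the conditions differ more in one ventricle than in the other was not tested. Over all features, limma called 0 of 2494 (0%) in each of the 3 left ventricle comparisons, with 22 (0.882%), 46 (1.84%) and 75 (3.01%) at an unadjusted p below 0.05 for CHF against CON, HYP against CON and CHF against HYP.

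Averaged over the 3 conditions, Cav3 was not shown to differ between the ventricles. Right minus left was -0.122 ± 0.346 (SE; 95% interval -0.841 to 0.596; limma, adjusted p = 0.817), with a mean of -0.404 in the right and -0.282 in the left ventricle (n = 18 and 6). In that contrast 18.3% of 2494 features passed. By condition, right minus left was 0.988 in HYP, 0.585 in CHF and -1.94 in CON. Arrays with the same number differed, right minus left, by -0.606 and 1.10 in HYP, 0.338 and 0.821 in CHF, and -2.31 and -3.21 in CON. For both CON numbers the right ventricle score was the lower one, and with the sign turned the differences were -2.15 and -3.45. In order of mean score the groups ran CHF right, CHF left, HYP right, CON left, HYP left, CON right, and each neighbouring pair overlapped and differed by less than the larger of its SDs. With the sign turned, the means of CHF right, CHF left and CON left were 0.0252, -0.751 and 0.020, against 0.0223 in HYP right, -0.966 in HYP left and -1.96 in CON right, so CON right stayed lowest.

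Cav1 was measured on 14 of 24 arrays, 9 from the right and 5 from the left ventricle. HYP right ventricles 04, 05, 06 and 08 had scores of 0.014, 2.19, 1.30 and -0.877. CHF right ventricles 10 and 14 had 5.13 and 3.47. CON right ventricles 17, 19 and 20 had -1.16, -0.113 and -0.579. The CHF scores were above all others, yet those arrays are the only CHF right ventricle arrays whose sign could be turned.

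Mean Cav1 was 0.654 ± 1.35 in HYP (n = 4), 4.30 ± 1.18 in CHF (n = 2) and -0.618 ± 0.525 in CON right ventricles (SD, n = 3). CHF minus CON was 4.92 ± 0.868 array SDs (SE of the fit) and became -3.68 with the sign turned. HYP minus CON, which uses none of those arrays, was 1.27 ± 0.727, with overlapping scores. CHF minus HYP was 3.65 ± 0.824 and -4.96 with the sign turned. The direction of Cav1 in CHF is therefore not settled by these arrays. Of 259 features with values on just 2 CHF right ventricle arrays, 37 had them on arrays 10 and 14, as Cav1 did. In CHF against CON 30 of the 37 were tested, Cav1 among them, and 26 had a difference above 0. Their median difference was 1.53, against -0.0992 over all features tested. The part of this in the Cav1 difference was not tested.

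**Figure D2:**
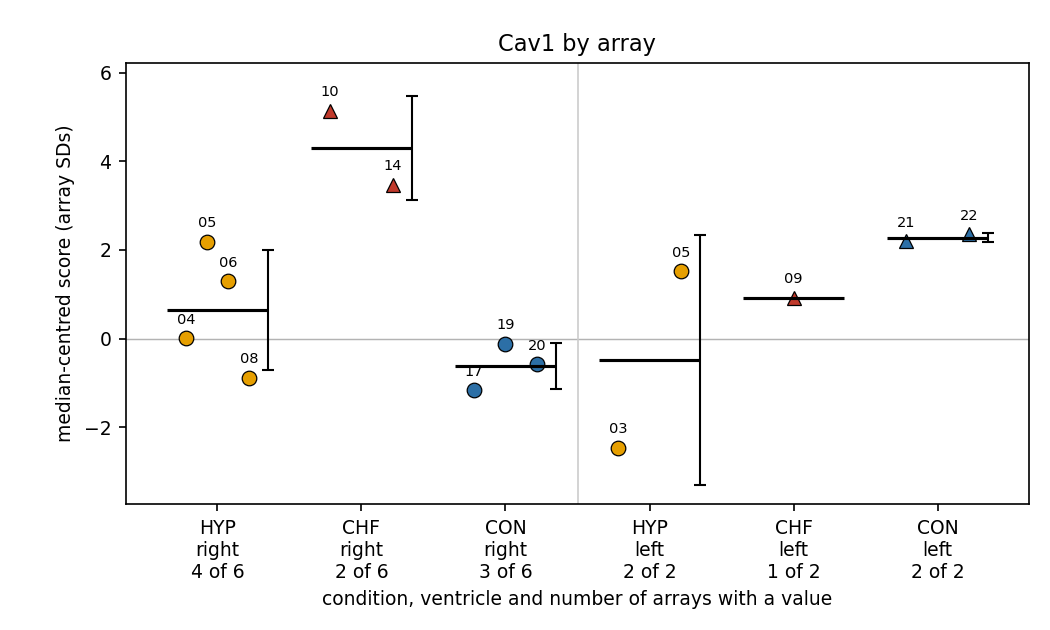
Median-centred Cav1 score (array SDs) on the 14 arrays that have a value, by condition and ventricle, with group means as lines and SDs as bars. Triangles mark arrays whose sign could be turned, and both CHF right ventricle points (5.13 and 3.47) and the CHF and CON left ventricle points are among them.

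Cav1 in the left ventricle was below 0 on 1 array only. HYP left ventricles 03 and 05 had scores of -2.46 and 1.52, the CHF left ventricle 09 had 0.926, and CON left ventricles 21 and 22 had 2.20 and 2.35. The CON scores were above the others, and both arrays could be turned. The largest left ventricle difference was HYP minus CON, -2.75 ± 1.19 (SE; 95% interval -5.34 to -0.154; limma, unadjusted p = 0.0396, adjusted p = 0.997), and with the sign turned it was 1.80. CHF minus CON was -1.35 ± 1.46 (interval -4.52 to 1.83; limma, adjusted p = 0.9998; sign turned, 1.35), and CHF minus HYP was 1.40 ± 1.46 (interval -1.78 to 4.57; limma, adjusted p = 0.958; sign turned, -0.455). Both rest on 1 CHF array, which the fit assumes to vary like the arrays of the other groups. Right minus left, averaged over the conditions, was 0.536 ± 0.696 (interval -0.981 to 2.05; limma, adjusted p = 0.613; n = 9 and 5), where 14% of 3049 features passed. By condition it was 1.13 in HYP, 3.38 in CHF and -2.89 in CON, and with the sign turned -3.38 in CHF and 1.66 in CON, both reversed. CHF minus CON had opposite signs in the 2 ventricles as read (4.92 right, -1.35 left) and with the sign turned (-3.68 right, 1.35 left), and this difference was not tested. These fits admitted features with at least 1 value per group, a filter chosen after the data were seen, and limma called 0 of 3049 in each left ventricle comparison, with 49 (1.61%), 80 (2.62%) and 119 (3.9%) at an unadjusted p below 0.05 for CHF against CON, HYP against CON and CHF against HYP. In order of mean score the groups ran CHF right, CON left, CHF left, HYP right, HYP left, CON right. CHF right and CON left did not overlap (gap 2.03), nor did CON left and CHF left (gap 1.35), and the other neighbours overlapped. The 3 leading groups hold only arrays whose sign could be turned, and turned, their means of -4.30, -2.28 and -0.926 were the lowest 3 of the 6.

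Arrays with a Cav1 value held 2616 to 3658 values in all (median 3258.5, n = 14), and arrays without one held 2162 to 3505 (median 3024, n = 10), so the ranges overlapped. Its part in the Cav1 result was not tested. Across the 14 arrays Cav1 and Cav3 correlated with Pearson r = 0.422 and Spearman rho = 0.398, and without CHF arrays 10 and 14 with r = 0.130 and rho = 0.154 (n = 12). These arrays share the reference pool, and the values are a description.

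Of the rest of the caveolar coat, 7 genes other than Cav1 and Cav3 were on the array and 6 were tested in the right ventricle, and none passed in CHF against CON or HYP against CON. Of all features 0.907% and 0.281% passed these 2 comparisons, by limma with Benjamini-Hochberg adjustment. At an unadjusted p below 0.05, 0 of the 6 passed as well, against 8.5% and 4.1% of all features. The median difference of the 6 was 0.0651 for CHF minus CON, against -0.0992 over all features, and 0.337 for HYP minus CON, against -0.0456. Cavin3, a cavin that binds protein kinase C delta, differed by 0.0954 ± 0.254 (SE) between CHF and CON, and its 2 probes by -0.133 and 0.324. Pacsin1 and Pacsin2, membrane-bending F-BAR proteins, differed by 0.0348 ± 0.368 and -0.0788 ± 0.382. Flot1, encoding a flotillin of cholesterol-rich membrane domains, differed by -0.377 ± 0.373, and Dnm2, the dynamin that pinches off vesicles, by 0.370 ± 0.430. Ehd2, the ATPase at the neck of caveolae, had the largest difference of the list, 1.91 ± 0.970, on 3 CHF and 4 CON arrays, and it was -0.396 with the sign turned, 0.656 without CHF array 14 and 2.68 without CHF array 11. Like Cav1, Ehd2 was missing on part of the arrays, with 16 values in all.

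**Figure D3:**
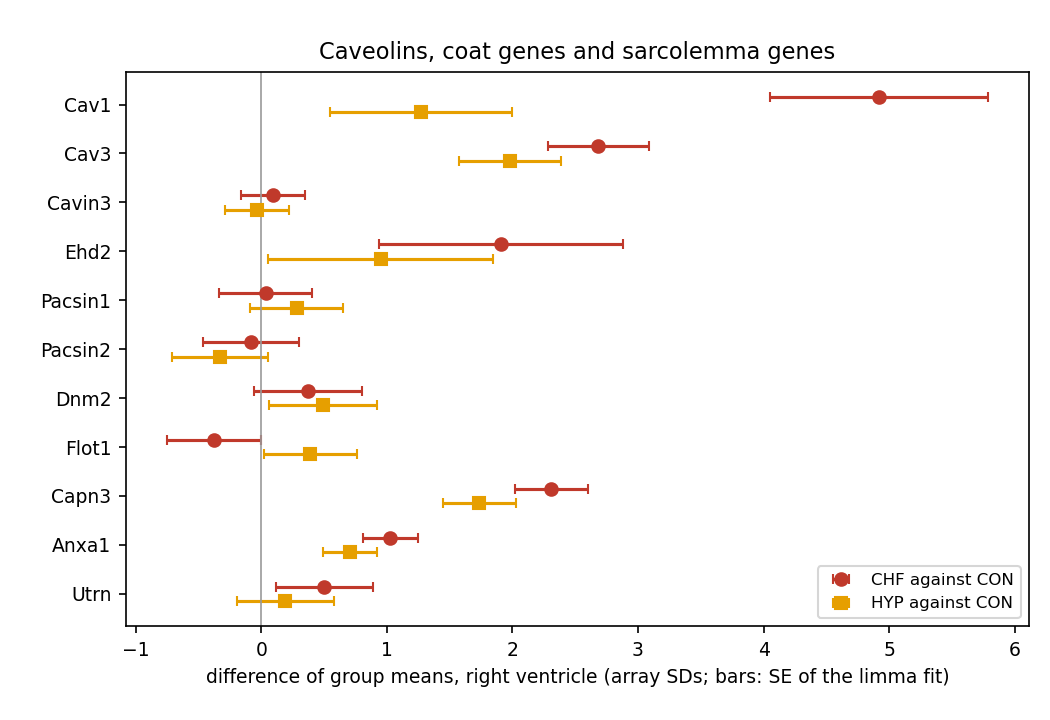
Right ventricle difference of group means (array SDs) for Cav1, Cav3, 6 coat genes and 3 sarcolemma genes, bars giving the SE of the fit, CHF minus CON as circles and HYP minus CON as squares. Cav3 and Capn3 lie far from 0 in both comparisons, Cav1 has values on 2 CHF arrays only, and the coat genes other than Ehd2 lie within 0.5 of 0.

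Genes of the sarcolemma and its repair, 9 of them tested, held 2 that rose in CHF over CON, where 0.875% of all features rose. In HYP over CON 1 rose, where 0.281% of all features rose, and 0 passed in CHF against HYP. That last comparison called 0% of all features, with 4.94% at an unadjusted p below 0.05 and 0 of the 9 at that level. In CHF against CON 3 of the 9 were at that level, Anxa1, Anxa5 and Capn3, against 8.5% of all features. In HYP against CON 2 were, Anxa1 and Capn3, against 4.1%. Capn3, the muscle calpain whose loss causes a limb-girdle dystrophy in humans, averaged 0.209 ± 0.709 in HYP, 0.783 ± 0.289 in CHF and -1.53 ± 0.323 in CON (SD, n = 6 each). It was 2.31 ± 0.294 (SE) higher in CHF than in CON (limma, adjusted p = 0.000149; sign turned, 1.86 and adjusted p = 0.0318) and 1.74 ± 0.294 higher in HYP (adjusted p = 0.0121; sign turned, adjusted p = 0.136). Anxa1, a calcium-dependent membrane-binding annexin, rose by 1.03 ± 0.218 in CHF over CON (limma, adjusted p = 0.0210; sign turned, 0.691 and adjusted p = 0.472). It passed in 13 of the 18 fits that leave out 1 array and failed without CHF 09 or 12, or CON 17, 19 or 22, with differences of 0.926 to 1.10 over the 18. Its adjusted p was 0.0524 without centring and 0.0824 with CHF and CON fitted alone. Fitted alone, HYP and CON gave Capn3 an adjusted p of 0.142. Utrn, the utrophin homologue of dystrophin, differed by 0.503 ± 0.385 between CHF and CON (limma, adjusted p = 0.743). In right minus left, where 18.3% of all features passed, Capn3 and Anxa1 were higher, by 0.809 ± 0.263 and 1.13 ± 0.160 (limma, adjusted p = 0.0399 and 0.000157). For Capn3 this held in HYP and CHF, with left ventricle means of -1.81 and -0.558. In CON the left ventricle mean, -0.595, was above the right, and both of those left arrays could be turned. The Anxa1 mean on the same 2 arrays was -0.715, against -0.214 in CON right ventricles. No sign-turned right minus left value is given for Capn3 or Anxa1.

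Channels and T-tubule genes, 16 tested, had no call in CHF against CON or HYP against CON, where 0.907% and 0.281% of all features passed. None of them had an unadjusted p below 0.05, against 8.5% and 4.1% of all features. Their median difference was -0.346 for CHF minus CON, against -0.0992 over all features. Cacna1c, the cardiac L-type calcium channel, differed by -1.39 ± 0.694, with CON array 17 at 4.94, and by -0.590 without that array. Among 28 genes of caveolin-associated signalling 1 rose in each comparison, where 0.875% and 0.281% of all features rose. It was Bdkrb1, the kinin B1 receptor, higher by 2.43 ± 0.318 in CHF over CON (limma, adjusted p = 0.000157) and 1.54 ± 0.318 in HYP over CON (adjusted p = 0.0422). With the sign turned, the CHF difference was 1.89 with an adjusted p of 0.0318 and the HYP difference had an adjusted p of 0.292, and 14 of the 18 fits that leave out 1 array lost the HYP call, with differences of 1.35 to 1.67. Adrb1, the main cardiac beta-adrenergic receptor, differed by -1.08 ± 0.377 between CHF and CON (limma, adjusted p = 0.315). Unadjusted, 4 of the 28 had a limma p below 0.05 in CHF against CON, Adrb1, Agtr1b, Bdkrb1 and Cd36. In HYP against CON 2 did, Bdkrb1 and Slc2a4. In right minus left, where 18.3% of all features passed, 4 signalling genes were higher and 2 lower of 24 tested, among them Adrb1, higher by 1.07, and Gnas, the stimulatory G protein alpha subunit, lower by -1.77. Mean Gnas was 1.72 in CON left and 0.289 in CON right ventricles, and both CON left ventricle arrays could be turned. No sign-turned value is given for these right minus left calls, so their direction is not settled.

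The cell type markers beside these results were as follows, with 0.907% of all features passing in CHF against CON. Endothelial genes, 14 on the array, gave 7 tested and 0 calls in CHF against CON (median difference -0.343), and defining members were scarce, with Vwf and Tie1 at no value and Pecam1, Kdr, Tek and Plvap on 5, 6, 2 and 3 of 18 right ventricle arrays. The mean of the 4 endothelial genes on every array ran over -0.756 to 0.490 in HYP, -0.904 to 0.454 in CHF and -0.749 to 0.717 in CON right ventricles. Cardiomyocyte genes, 14 on the array with a value each, gave 0 calls (median -0.317), and the mean of 11 of them ran over -0.821 to 0.956 in HYP, -2.23 to 1.12 in CHF and -0.887 to 1.18 in CON. The right ventricle groups of both sets overlapped, and sets this small could hold 0 calls at a share of 0.907%. Unadjusted, 0 of the 7 endothelial and 1 of the 14 cardiomyocyte genes (Fabp3) had a limma p below 0.05 in CHF against CON. In right minus left, where 18.3% of all features passed in either direction, 5 of 13 cardiomyocyte genes were lower. Of 6 smooth muscle and pericyte genes (median difference 0.335, 4 above 0), 1 passed. At an unadjusted limma p below 0.05 there were 3 of the 6, Acta2, Rgs5 and Tagln, against 8.5% of all features. Acta2, smooth muscle actin, rose in CHF over CON by 1.58 ± 0.252 (limma, adjusted p = 0.00132; sign turned, adjusted p = 0.0849), though only 1 of its 3 probes moved (4.14, against 0.417 and 0.188). Of 7 fast skeletal muscle genes (median -0.00367, 3 above 0), 1 passed, while Tnnc2 differed by -0.753 and Myh1 by -0.470. Unadjusted, 3 of the 7 had a limma p below 0.05, Pvalb, Tnnc2 and Tnni2. Pvalb, the calcium buffer parvalbumin, rose by 1.18 ± 0.243 (adjusted p = 0.0195; sign turned, 0.608 and adjusted p = 0.523). Pvalb lost its call without CHF 09 or 10, or CON 17 or 19, with differences of 1.10 to 1.29 over all fits that leave out 1 array. None of 6 fibroblast, 5 adipocyte, 2 lung epithelium, 3 macrophage and 4 erythrocyte genes passed in CHF against CON, and in right minus left all 4 erythrocyte genes were lower (median -5.44). The mean of the 3 erythrocyte genes on every array ran over 3.27 to 5.23 in CON left and -6.65 to -1.67 in CON right ventricles. Both CON left ventricle arrays could be turned. No sign-turned value is given for right minus left of the erythrocyte or cardiomyocyte genes, so that direction is not settled. The part of these markers in the Cav1 and Cav3 results was not tested.

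Genes whose score was most like that of Cav3 over the 18 right ventricle arrays, among 1481 with a value on all of them, were led by Tpm3 (Pearson r = 0.954, Spearman rho = 0.940), Bdkrb1 (r = 0.947), Tpm4 (0.938), Acta2 (0.926) and Safb (0.923), followed by Capn3, Pvalb, Maoa, Fgb and Ocm (0.890 to 0.920). Tpm3 and Tpm4 are tropomyosins of the actin cytoskeleton, Tpm3 also of slow muscle fibres, and Safb binds scaffold-attachment DNA and RNA. The probes of Acta2 and Fgb were unlike each other. By probe, r with Cav3 was 0.918, 0.407 and 0.0860 for Acta2, and 0.903 and 0.494 for Fgb. With group means taken off, Tpm3 (0.817), Tpm4 (0.812), Bdkrb1 (0.795) and Acta2 (0.706) led, closely followed by Nf2 (0.703) and Rin1 (0.702). Safb, Capn3, Pvalb, Maoa and Ocm then left the first 10, with r of 0.518 to 0.668. With the sign turned and group means kept, r lay between 0.822 and 0.939 for the 10 genes named first. Over all 24 arrays and 1446 genes, Bdkrb1 (0.884), Safb (0.881), Pvalb (0.878), Tpm4 (0.874) and Tpm3 (0.870) led. All these values share arrays, pool and the condition order, and they are a description.

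**Figure D4:**
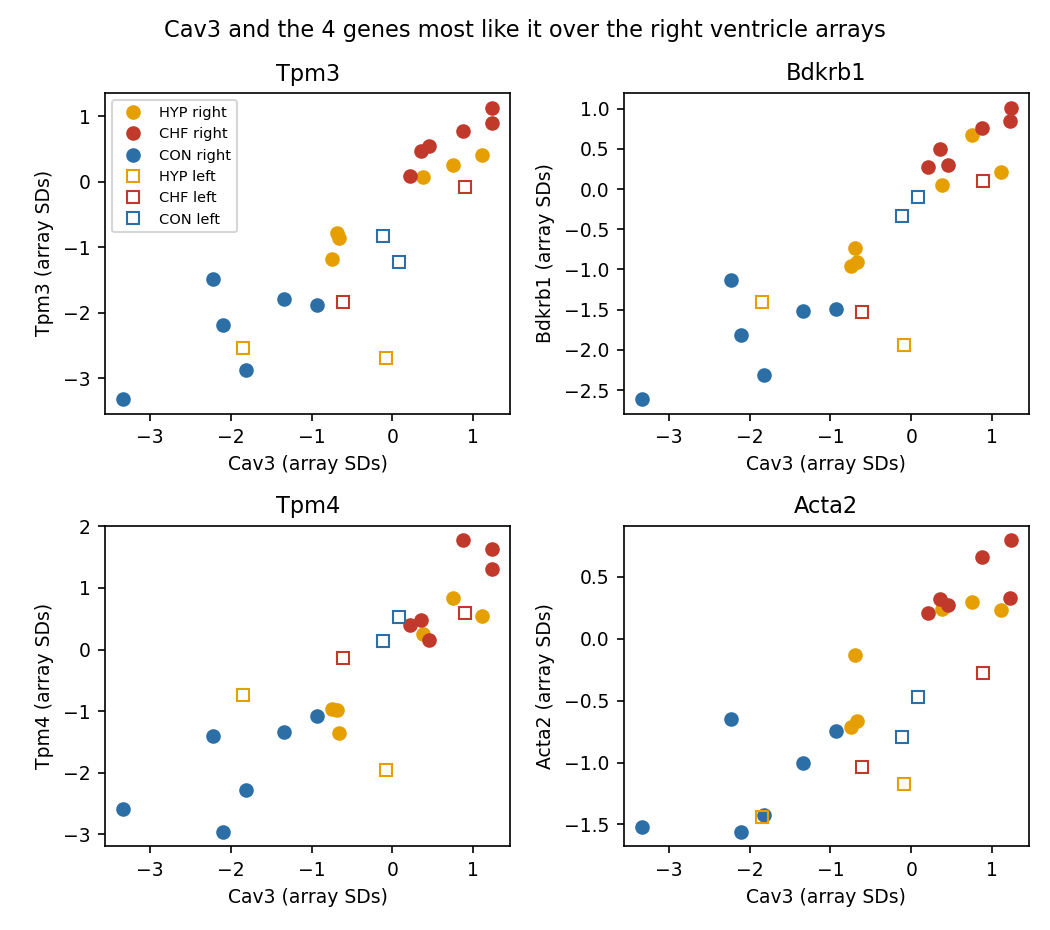
Score of Tpm3, Bdkrb1, Tpm4 and Acta2 against Cav3 on each of the 24 arrays (array SDs), right ventricles filled and left ventricles open, coloured by condition. The Acta2 score is the average of probes that differed from each other. CON right ventricles lie at the low end and CHF right ventricles at the high end, and HYP right ventricles fall into 3 high and 3 low arrays on all 4 panels except Acta2, where array 03 lies between.

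For Cav1, 14 arrays and 1850 genes gave Ppp2r1a (r = 0.962), a scaffold subunit of protein phosphatase 2A, Nfia (0.916), Rab10 (0.912), Atp6v1b2 (0.902) and Prkci (0.887). With group means taken off, r for these genes in the same order was 0.663, 0.743, 0.612, 0.463 and 0.695. With the sign turned and group means kept, it lay between 0.880 and 0.966. Turned, Ppp6c (0.919) took the place of Prkci among the first 5. Without CHF arrays 10 and 14, Ppp2r1a (0.959), Noct (0.915), Nfia (0.904), Prkci (0.848) and Atp6v1b2 (0.831) led among 12 arrays, so Rab10 left the 5 and Noct entered. Ppp2r1a, Nfia, Rab10 and Prkci lacked a value on some right ventricle arrays, so they could not enter the list of genes most like Cav3. The lists for Cav1 and Cav3 can therefore not be set against each other.

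**Figure D5:**
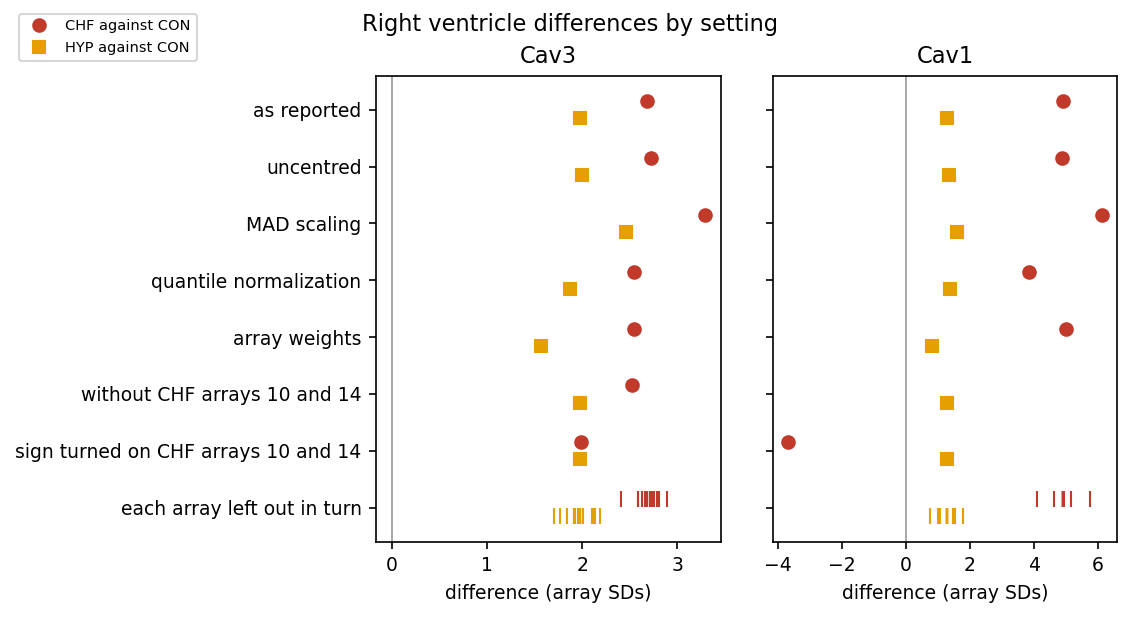
Right ventricle difference (array SDs) of Cav3 and Cav1 under each setting, CHF minus CON as circles and HYP minus CON as squares, with ticks for the fits that leave out 1 array each. The Cav3 differences stay above 0 in every setting shown, between 1.56 and 3.29, while CHF minus CON for Cav1 turns to -3.68 when the sign of CHF arrays 10 and 14 is turned.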

How the data were processed

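Per the labels, total RNA of 24 rat ventricle samples was hybridised with a reference pool on 2-colour arrays. The authors deposited one score per probe and array, and the sources used here do not state its scale, dye assignment, background correction or normalization. The design expected log2 ratios; limma was kept because the scores are signed. Each array was centred on its median and probes of a gene were averaged. A single symbol named 4278 of the 4803 probes, several named 4, and 521 stayed unnamed. Groups came from the labels. limma 3.58.1 (R 4.3.3, statmod 1.5.0) was fitted over all features with at least 2 values per group, on 18 right ventricle arrays (3199 features) and on 24 arrays in 6 groups (2494 features), with Benjamini-Hochberg adjustment at 0.05, and was tested on simulated data. Arrays lacking a value were dropped for that gene. Precision is limited by the number of arrays, since signal over background is unknown. The 2 genes and all lists were chosen with earlier results of these data known. Named genes were the measured coat genes, the called members and the 3 largest CHF minus CON differences of the other pathway lists among genes with values on all 18 right ventricle arrays, and those most correlated with Cav3 and Cav1. Alternatives covered centring, scaling, quantile normalization, array weights, sign turning, filters, fewer groups, each array left out and same-number arrays as a block. Arrays with one number in both ventricles correlated, in deviations from group means, by between -0.200 and 0.305. With 2 arrays in each left ventricle group, their deviations mirror each other, so these values cannot settle pairing. The labels do not state pairing, and the main fits took the arrays as unpaired.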

Additional observations from a re-analysis of the deposited data

Results flagged for a closer look

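In 5 of 102 groups tested, 1 array stood apart from its group, and chance flags about 1 in 20 groups. Cavin3 on CON right ventricle 17 was 0.282 (others -0.940 to -0.624), Pacsin2 on CON right ventricle 18 was -1.44 (others -0.326 to 0.272), and Flot1 on CHF right ventricle 11 was 0.407 (others -1.28 to -0.667). Cacna1c on CON right ventricle 17 was 4.94 (others -0.154 to 0.303). Prkci on CHF right ventricle 11 was -1.47 (others 1.49 to 2.39).

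The Cav1 effect of CHF against CON ran in opposite directions in the ventricles. The left ventricle effect minus the right ventricle effect was -6.27: the CHF left ventricle array was below both CON arrays, while both CHF right ventricle arrays were above all CON arrays. With the sign turned, the CHF arrays with a Cav1 value and the CON left ventricle arrays all change sign, and the value was 5.03. The difference was not tested.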

How the results depend on the processing

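Cav3 in the right ventricle kept its direction in all settings tried, and no left ventricle or right minus left result of Cav1 or Cav3 passed the threshold in any of them. Right minus left for Cav3 was 0.0413 without centring, 0.00300 after quantile normalization and -0.331 with array weights. With the sign turned, CHF against CON called 9 features, HYP against CON 1 and CHF against HYP 1, Cav1 was -3.68 (CHF minus CON) and -4.96 (CHF minus HYP), its left ventricle values were 1.35 (CHF minus CON), 1.80 (HYP minus CON) and -0.455 (CHF minus HYP) and right minus left -0.197, Cav3 left CHF minus CON was -0.771, and Ehd2, Flot1, Dnm2 and Utrn (CHF minus CON) were -0.396, 0.365, -0.0527 and -0.342. Without CHF arrays 10 and 14, 18 features were called in CHF against CON, and Cavin3, Dnm2 and Utrn were -0.113, -0.107 and -0.0764. MAD scaling gave Cav1 6.12 (CHF minus CON), and quantile normalization 2.45 (CHF minus HYP). Array weights gave 1 call in CHF against HYP, Cavin3 -0.0688 (CHF minus CON) and 0.0229 (HYP minus CON), Dnm2 -0.188 (CHF minus CON) and Utrn -0.0381 (HYP minus CON). With only the groups compared, limma called none of 3451 features (0) in HYP against CON, while 139 had an unadjusted p below 0.05. The cause of these shifts was not tested.

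With a replicate block on same-number arrays (correlation 0.239), which the labels do not say are paired animals, Cav3 left CHF minus CON was -0.0332 and right minus left -0.247, or -0.645 with the number as a fixed block over 12 arrays. With each array left out in turn, the calls ranged over 16 (without CON 19) to 38 (without CON 21) in CHF against CON, 3 to 9 in HYP against CON and 0 to 1 in CHF against HYP. Right ventricle differences (CHF minus CON, HYP minus CON, CHF minus HYP) ranged over 4.09 to 5.75, 0.762 to 1.78 and 2.82 to 4.48 for Cav1, and 2.41 to 2.89, 1.71 to 2.19 and 0.549 to 0.920 for Cav3. In the left ventricle the same 3 ranged over -1.42 to -1.27, -4.74 to -0.755 and -0.594 to 3.39 for Cav1, and -0.590 to 0.912, -1.83 to -0.065 and 0.226 to 1.99 for Cav3. Right minus left ranged over -0.128 to 1.20 for Cav1 and -0.416 to 0.171 for Cav3. Cavin3 ranged over -0.0507 to 0.271 (CHF minus CON) and -0.101 to 0.144 (HYP minus CON), Pacsin1 over -0.182 to 0.193 and Pacsin2 over -0.323 to 0.155 (CHF minus CON), Utrn over -0.00947 to 0.286 and Cacna1c over -0.896 to 0.122 (HYP minus CON). Requiring a value on every array leaves no Cav1 result, the fixed block gives no Cav1 result, and testing each probe on its own was not run because each gene has 1 probe.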
